A study of Mus musculus with 22 samples.

Results

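Axon guidance ligands and receptors were read in mouse ulnae, a forearm bone, with and without mechanical loading. The members were chosen by gene symbol: semaphorins of classes 3 to 7 and their plexin receptors, ephrins and Eph receptors, Slits and their Robo receptors, and netrins and their Unc5 receptors. The deposited tables held 64 such genes of 25471: 20 semaphorins, 9 plexins, 8 ephrins, 13 Eph receptors, 3 Slits, 4 Robos, 3 netrins and 4 Unc5 receptors. Epha8 and Ntn3 match by name and were not analysed here. A count filter kept 60 members. It left out Epha10, with 0 to 3 counts per library, Epha6, with 0 to 8, and Ntn5 and Unc5d, with at most 13 each.

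These molecules steer growing axons, and most of them also act outside the nervous system. Semaphorins signal through plexins, the secreted class 3 members together with neuropilins. Ephrins and Eph receptors are both bound to membranes and signal in either direction between touching cells. In bone, Sema4d made by osteoclasts holds back osteoblasts through Plxnb1, Sema3a favours bone formation over resorption, and Efnb2 and Ephb4 link osteoclasts with osteoblasts.

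The study asked what loading does to bone with and without Tlr4, a receptor of innate immunity whose role the series title places in osteoblasts. Total RNA came from the middle of both ulnae of 11 mice, 4 with a conditional Tlr4 knockout (CKO) and 7 wildtype (WT); the right limb was loaded and the left was not. The 22 libraries therefore formed 4 groups: CKO loaded and CKO non-loaded with 4 libraries each, and WT loaded and WT non-loaded with 7 each. The labels used here give no Cre driver, strain, age, loading regime or time of harvest.

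Libraries held 21999891 to 42833729 counts. Tlr4, the targeted gene, averaged 29.2 ± 3.16 CPM (its counts relative to the size of the library; SD, n = 4) in CKO loaded and 30.1 ± 3.43 CPM (n = 4) in CKO non-loaded bone, against 33.4 ± 4.82 CPM (n = 7) in WT loaded and 32.5 ± 4.89 CPM (n = 7) in WT non-loaded bone. In whole bone it did not separate the genotypes. Ltbp2, another gene, lay at 205 CPM or more in CKO libraries and at 73.5 CPM or less in WT libraries, apart from the library labelled CKO loaded 688 at 38.4 CPM and the library labelled WT loaded 686 at 380 CPM. Both went against their labels, and member counts are given with and without these mice where they differ by over 1.5 times. The bones were not free of muscle and marrow: 20 muscle genes together took 199000 CPM in CKO loaded 698, against 24900 CPM in CKO non-loaded 691. Bone genes were present throughout, with Col1a1, the main collagen of bone, at 1250 to 19500 CPM.

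The sequences around the starts of Sema3d and Sema7a are shown because they had the smallest p-values for loading in CKO, given below. Sema3d is a secreted class 3 semaphorin, and Sema7a is anchored to the membrane by a lipid. Each window runs from 250 bases before to 50 after the start in RefSeq (GRCm38.p6, plus strand), at chr5:12382916-12383215 for Sema3d and chr9:57939862-57940161 for Sema7a. The starts in RefSeq and GENCODE differ for Sema3d: its window ends before the GENCODE start at 12383385. Capitals mark TGACG, the core of the cyclic AMP response element, on either strand.
Sema3d: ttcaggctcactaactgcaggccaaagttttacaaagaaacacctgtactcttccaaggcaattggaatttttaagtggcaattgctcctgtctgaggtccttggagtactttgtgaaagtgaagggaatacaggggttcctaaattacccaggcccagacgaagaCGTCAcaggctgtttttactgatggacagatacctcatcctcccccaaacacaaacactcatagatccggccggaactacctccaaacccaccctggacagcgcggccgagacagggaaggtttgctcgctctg
Sema7a: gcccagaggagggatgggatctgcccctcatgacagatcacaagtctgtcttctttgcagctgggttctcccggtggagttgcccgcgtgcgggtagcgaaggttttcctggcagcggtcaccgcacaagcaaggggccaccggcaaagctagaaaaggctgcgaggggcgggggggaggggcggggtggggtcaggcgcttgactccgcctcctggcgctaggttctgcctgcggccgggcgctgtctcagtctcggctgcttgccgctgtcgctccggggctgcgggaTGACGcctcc
Each held TGACG once, at -84 on the minus strand (as CGTCA) in Sema3d and at 41 on the plus strand in Sema7a, counted from the RefSeq start. Among 32851 promoter windows of the same length, 20.8% held it on at least 1 strand. The full element TGACGTCA, which contains the core and lay in 1.79% of windows, was in neither. Nor was TGANTCA, the AP-1 motif (7.81% of windows), or GCGNGGGCG, the EGR motif (5.55%). In all 55 of the 64 members had a promoter entry.

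Taken per length, as mean CPM per kilobase over the 22 libraries, Sema7a led the ligands at 18.1. It was followed among the semaphorins by Sema4d at 11.5, Sema6c at 8.72, Sema6d at 7.26 and Sema4a at 7.11. Plxnd1, an endothelial receptor of Sema3e, led the plexins at 14.8, ahead of Plxnb2 at 11.1 and Plxna1 at 6.21. Plxna1 takes part in osteoclast formation, and Sema6d is one of its ligands. Efnb1 led the ephrins at 4.93 and Ephb4 the Eph receptors at 6.60, with Epha2 close behind at 5.88. The other families were led by Slit3 at 13.9, Robo4, the endothelial Robo, at 4.36, Ntn1 at 5.74 and Unc5b, a netrin receptor of vessels, at 6.51.

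The levels covered a wide range, with 53 of 64 members averaging at least 1 CPM. Together the members made up 0.129% to 0.188% of a library's counts. Semaphorins summed to 547 to 755 CPM and plexins to 367 to 523 CPM, while the ephrins summed to 29.7 to 75.8 CPM and the Eph receptors to 57.4 to 135 CPM. Dcc, the other main netrin receptor, was nearly silent, at 0.277 ± 0.182 CPM (SD, n = 7) in the group where its mean was highest, WT loaded bone. Neo1, another co-receptor of the pathway, was not. Its group means ran from 75.5 ± 29.1 CPM in CKO non-loaded to 89.5 ± 14.6 CPM in CKO loaded bone (SD, n = 4 each). The neuropilin co-receptors were abundant, with Nrp1 at 53.3 to 87.3 CPM and Nrp2 at 116 to 311 CPM. The 9 neuronal markers present in the tables summed to 6.44 to 10.5 CPM, and 10 Schwann cell markers to 201 to 459 CPM.

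**Figure D1:**
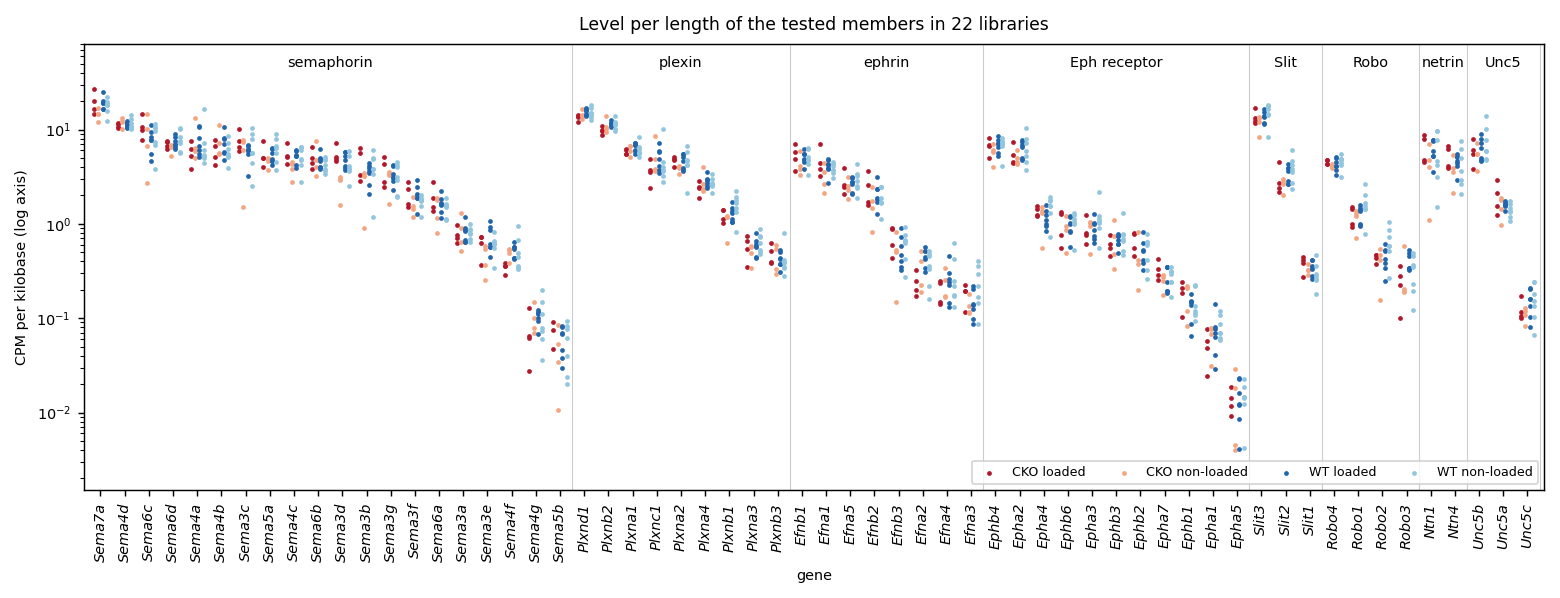
Level of each of the 60 tested members in every library, in CPM per kilobase on a log axis, grouped by family and ordered by mean; each point is 1 library and colours give the 4 groups. Sema7a, Plxnd1 and Slit3 stand highest, and the colours mix in most columns; libraries with 0 counts cannot be drawn on the log axis.

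Sema3d had the smallest p of all members for loading in CKO bone. The gene is ENSMUSG00000040254 and spans chromosome 5, 12383385 to 12588948, plus strand, in GENCODE on GRCm38. In CKO mice 688, 691, 693 and 698 it stood at 42.1, 39.8, 62.1 and 43.9 CPM in the loaded limb, against 27.3, 13.5, 25.3 and 25.7 CPM in the non-loaded limb. The loaded limb was higher in 4 of 4 mice, as for 5.07% of all genes. The lowest loaded limb lay above the highest non-loaded one, and the share of all genes that separate in this way was not counted. Group means were 46.9 ± 10.2 CPM in CKO loaded and 23.0 ± 6.36 CPM in CKO non-loaded bone (SD, n = 4 each). The log2 fold change was 1.03 ± 0.24 (SE), which missed the threshold after adjustment over 18793 genes (edgeR adjusted p = 0.349). This main fit, used for all comparisons, did not pair the limbs of a mouse. With the mouse as a block the value was 1.06 (edgeR adjusted p = 0.175). Without mice 686 and 688, whose loaded libraries went against their labels in Ltbp2, the main fit gave 1.18.

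In WT bone Sema3d ran at 32.0 CPM at the lowest, 40.7 at the median and 50.2 at the highest in loaded limbs, against 21.6, 33.7 and 50.7 CPM in non-loaded limbs. These groups overlapped almost fully, and 5 of 7 mice were higher in the loaded limb. Means were 41.0 ± 7.65 CPM in WT loaded and 35.7 ± 9.56 CPM in WT non-loaded bone (SD, n = 7 each), a log2 fold change of 0.20 ± 0.18 (edgeR adjusted p = 1). That value was 0.30 without mouse 685, 0.13 without mouse 690 and 0.34 by voom with quality weights. The loading effect was larger in CKO by 0.83 ± 0.30 on the log2 scale, a difference that did not pass either (edgeR adjusted p = 0.697). CKO and WT differed in the non-loaded limb by -0.64 ± 0.21 (edgeR adjusted p = 0.976) and in the loaded limb by 0.20 ± 0.21 (edgeR adjusted p = 0.713). The loaded-limb value was 0.03 without mouse 693 and 0.075 with the muscle and marrow covariates described below. Averaged over both genotypes, loading gave 0.62 ± 0.15 (edgeR adjusted p = 0.29), with 9 of 11 mice higher in the loaded limb.

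Whether Sema3d passed depended on the tool. For loading in CKO, DESeq2 called it at 1.05 (adjusted p = 0.0196) and limma voom with quality weights at 0.91 (adjusted p = 0.0251). For the mean of both genotypes both tools called it at 0.62, with an adjusted p of 0.0342 by DESeq2 and 0.0043 by voom. EdgeR with the mouse as a block and muscle and marrow covariates also called it for that mean, at 0.62 (edgeR adjusted p = 0.0356), among 0.266% of genes. Voom with a random mouse effect did not, at 1.07 for loading in CKO (adjusted p = 0.117). Over 23 alternatives the CKO fold change lay between 0.89 and 1.19 on the log2 scale and its adjusted p between 0.0196 and 1. In CKO the muscle genes summed to 124000 to 199000 CPM in loaded and 24900 to 172000 CPM in non-loaded limbs. The muscle score was higher in the loaded limb of mice 691, 693 and 698. In mouse 688, whose loaded library went against its label in Ltbp2, the score was lower there, at 11.236 against 11.689. Sema3d was higher in the loaded limb of all these mice. With muscle and marrow scores as covariates the Sema3d value was 0.89 (edgeR adjusted p = 0.723). It was 0.94 with the mouse block added to these (edgeR adjusted p = 0.158). The part of muscle in the Sema3d values was not tested. In bulk bone, fewer cells of a type and less RNA per cell cannot be told apart.

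**Figure D2:**
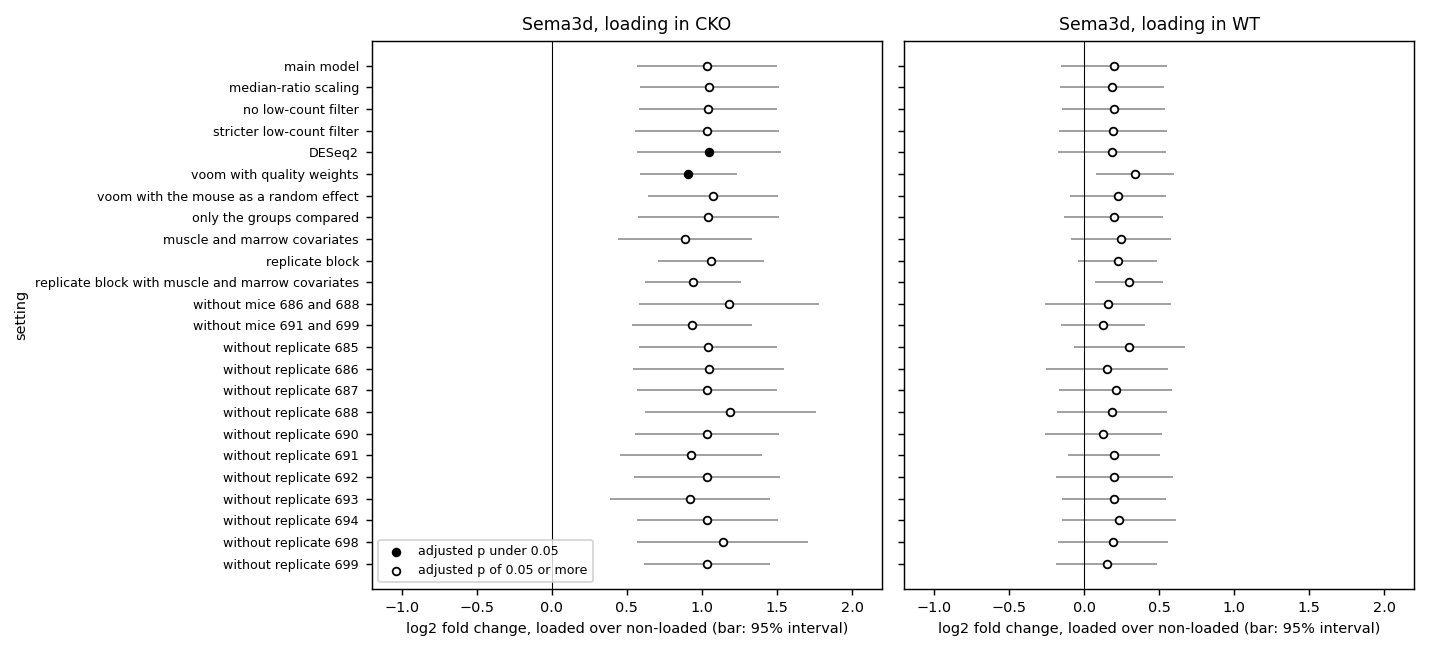
Log2 fold change of Sema3d, loaded over non-loaded, in CKO (left) and WT (right), under the main model and each alternative; bars are 95% intervals from the standard error and filled points have an adjusted p under 0.05. Every CKO value lies above 0.8 and 2 of them are filled, while every WT value lies below 0.4 and none is filled.

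Loading in CKO bone gave 0 of 60 members past the adjusted threshold by edgeR, where 0.016% of all 18793 genes passed. By DESeq2 and by voom with quality weights 1 member passed, Sema3d, against 0.117% and 0.0958% of genes, and 0 by voom with a random mouse effect. At an unadjusted p under 0.05 there were 4 members, all higher in the loaded limb: Sema3d, Sema7a, Efna1 and Sema4c (background 3.6% of genes in either direction, 1.61% higher). In all, 43 members had a fold change above 0 and 17 below, with a median of 0.19 on the log2 scale, while over all genes 48.3% were above 0 and the median was -0.01. The unadjusted count moved to 9 without mouse 688, to 7 without mouse 699 and without mice 686 and 688 together, to 2 without mouse 693 and to 1 without mouse 691. The median was 0.105 without mouse 691 and 0.315 without mouse 688. With muscle and marrow covariates the count was 1 and the median 0.03. All 20 muscle genes were above 0 in this comparison, with a median of 0.55. The 12 erythroid, 12 neutrophil and 10 B cell genes tested were all below 0, with medians of -0.49, -0.58 and -0.54. Of 8 osteocyte genes 7 were above 0, with a median of 0.43. The osteocyte genes summed to 723 to 1480 CPM in CKO loaded and 560 to 648 CPM in CKO non-loaded bone. The part of these lists in the members' values was not tested.

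Sema7a, which binds Plxnc1 and integrins, stood at 48.0, 54.9, 89.0 and 65.6 CPM in CKO loaded limbs, against 48.3, 39.7, 56.4 and 47.8 CPM in the non-loaded limbs of the same mice. The groups overlapped, and mouse 688, whose loaded library went against its label in Ltbp2, showed no difference. The log2 fold change was 0.42 ± 0.18 (edgeR adjusted p = 0.739). In WT loaded limbs its lowest, median and highest values were 54.7, 63.2 and 82.2 CPM, against 40.8, 60.3 and 73.2 CPM in WT non-loaded limbs. Over both genotypes the effect was 0.27 ± 0.11 (edgeR adjusted p = 0.999), with the loaded limb higher in 8 of 11 mice.

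Efna1, an ephrin held to the membrane by a lipid anchor and a ligand of Epha2, read 5.91, 8.15, 6.93 and 12.9 CPM in CKO loaded limbs, against 6.47, 3.88, 4.87 and 8.07 CPM in CKO non-loaded limbs. The groups overlapped and 3 of 4 mice were higher in the loaded limb, the exception being mouse 688. Its log2 fold change was 0.55 ± 0.23 (edgeR adjusted p = 0.739), and 0.25 with muscle and marrow covariates. In WT its limbs were alike within their spread, at 7.47 ± 1.33 CPM in loaded and 7.02 ± 0.932 CPM in non-loaded bone (SD, n = 7 each). Sema4c, a transmembrane ligand of Plxnb2 named here after its values were seen, averaged 25.2 ± 5.56 CPM in CKO loaded and 17.7 ± 3.6 CPM in CKO non-loaded bone (SD, n = 4 each). Its log2 fold change was 0.51 ± 0.22 (edgeR adjusted p = 0.739).

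In all 4 CKO mice, 5 members were higher in the loaded limb, namely Epha2, Ntn4, Robo4, Sema3d and Unc5b. That is 5 of 60 where 5.07% of all genes did so. The differences were small for Epha2, at 0.02 to 0.29 on the log2 CPM scale, for Robo4, at 0.08 to 0.21, and for Unc5b, at 0.02 to 0.13. Ntn4, a netrin of basement membranes, spanned 0.06 to 1.64 and Sema3d 0.62 to 1.55. Epha1, Sema4f and Sema4g were lower in all 4, where 5.9% of genes were. No member was higher, or lower, in the loaded limb of all 11 mice, against 0.165% and 0.0266% of genes.

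**Figure D3:**
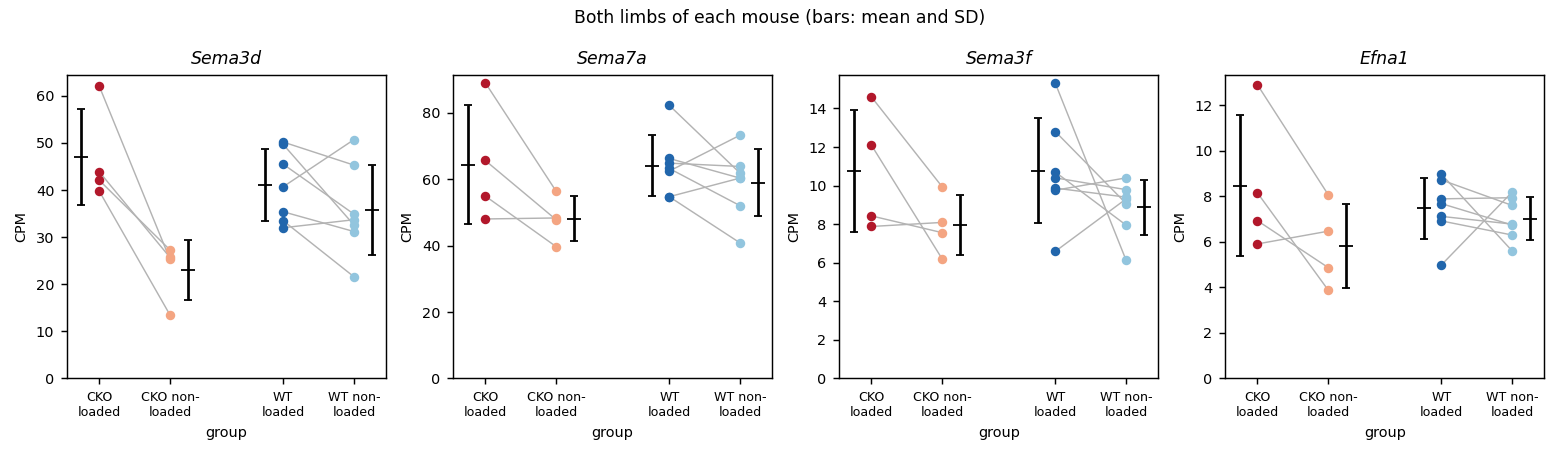
Level in CPM of Sema3d, Sema7a, Sema3f and Efna1 in both limbs of every mouse; grey lines join the limbs of 1 mouse and black bars give the mean and SD of a group (4 CKO and 7 WT mice). The CKO loaded limbs lie above all CKO non-loaded limbs for Sema3d, which was chosen for its small p in this comparison. The share of all genes that separate in this way was not counted. The limbs overlap for the other genes.

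For loading in WT bone, 28 members were above 0 and 32 below, with a median of -0.01 on the log2 scale, against 47.7% of all genes above 0 and a median of -0.01. This split depended on the mice: without mouse 699 it was 18 above and 42 below (median -0.11), and without mice 691 and 699 it was 15 and 45 (median -0.14). With muscle and marrow covariates it was 38 above and 22 below (median 0.04). By edgeR 0 of 60 passed, where 0.00532% of all genes did, and 0 passed by DESeq2 and by both voom fits. At an unadjusted p under 0.05 there were 2 members, Efna3 and Robo2, both lower in the loaded limb (background 2.34%, with 1.22% higher and 1.12% lower).

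Robo2, a Slit receptor, stood at 4.21, 7.19 and 10.3 CPM (lowest, median and highest) in WT loaded limbs, against 4.56, 9.92 and 17.7 CPM in WT non-loaded limbs. The ranges overlapped, with 1 of 7 mice higher in the loaded limb. Its log2 fold change was -0.59 ± 0.26 (edgeR adjusted p = 1). Robo1, the related receptor, ran from 15.6 to 26.4 CPM with a median of 22.5 in WT loaded limbs, and between 12.9 and 43.7 CPM with a median of 25.8 in WT non-loaded limbs. That gave -0.40 ± 0.21 (edgeR adjusted p = 1), with 2 of 7 mice higher in the loaded limb.

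Epha4, a receptor of both ephrin classes, averaged 9.25 ± 2.14 CPM in WT loaded and 12.2 ± 3.21 CPM in WT non-loaded bone (SD, n = 7 each). Its log2 fold change was -0.40 ± 0.21 (edgeR adjusted p = 1). Efna3 gave -0.73 ± 0.30 (edgeR adjusted p = 1). It had only 6 to 34 counts per library, which limits its precision, and it was named after its values were seen. All 11 tested Eph receptors had a fold change below 0 for loading in WT, at -0.403 to -0.002, and 8 of 11 one above 0 in CKO. Of all genes, 47.7% were above 0 for loading in WT and 48.3% in CKO. In WT, Ephb4 at -0.002 ± 0.149 and Epha5 at -0.009 ± 0.431 lay far within their errors. The Eph receptors were chosen for mention because of these signs, and counts for the other families in WT are not given. Plexins lay on both sides of 0 in WT, at -0.31 to 0.132, and so did semaphorins, at -0.264 to 0.282. Ephrins ran from -0.733 to 0.285, Robos from -0.588 to 0.344, Slits from -0.197 to 0.196 and Unc5 receptors from -0.255 to 0.175. The tested netrins were at 0.086 and 0.091. With muscle and marrow covariates the Eph receptor counts became 5 of 11 below 0 in WT and 4 of 11 above 0 in CKO. Osteoblast genes moved the same way in WT: all 11 on the list were below 0, with a median of -0.39 on the log2 scale, and their part in these values was not tested. The unadjusted count of 2 moved to 10 without mice 691 and 699 together and to 5 without mouse 699. It was 3 without mouse 686 or 691, 1 without mouse 687 or 692, and 0 without mouse 685 or 690.

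The difference of the loading effects, CKO minus WT, was positive for 43 of 60 members, with a median of 0.29 on the log2 scale, where 50.2% of all genes were positive. By edgeR 0 passed the adjusted threshold, as for 0.0% of all genes, and 0 by DESeq2 or either voom fit. Besides Sema3d, Efna3 had an unadjusted p under 0.05 (background 2.6%, of which 1.14% positive), at 1.15 ± 0.51 (edgeR adjusted p = 0.697). Sema3b, a secreted class 3 semaphorin, gave 0.99 ± 0.50 (edgeR adjusted p = 0.697). It stood at 13.5, 27.0, 15.8 and 30.4 CPM in CKO loaded limbs, against 15.2, 4.3, 15.2 and 16.5 CPM in CKO non-loaded limbs. The gap between limbs was widest in mouse 691, at 27.0 against 4.3 CPM. The Sema3b value was 0.59 without mouse 691, 0.26 with muscle and marrow covariates, and 0.09 with the mouse block added to these. Sema5a, a semaphorin with thrombospondin repeats, gave 0.51 ± 0.28 (edgeR adjusted p = 0.697), and 0.32 without mouse 693.

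All 20 muscle genes also had a positive difference, with a median of 0.63, as did 7 of 8 osteocyte genes, with a median of 0.55; their part in these values was not tested. With muscle and marrow covariates the members split evenly, 30 positive and 30 negative, with a median of -0.01. Without mice 686 and 688 the unadjusted count was 5, without mouse 688 alone 6, without mouse 699 alone 12, and without mouse 685 or 690 it was 1. The median of the members was 0.145 without mouse 691 and 0.452 without mouse 688.

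Averaged over both genotypes, loading gave 36 members above 0 and 24 below, with a median of 0.03, where 45.7% of all genes were above 0. Without mice 691 and 699 the split was 25 above and 35 below (median -0.02). By edgeR 0 passed, against 0.0905% of genes. DESeq2 and voom with quality weights each called 1, Sema3d, where they called 0.176% and 0.474% of genes, and voom with a random mouse effect called 0. There were 4 members with an unadjusted p under 0.05, all higher in the loaded limb (background 3.17%, 1.75% higher): Sema3d, Sema3f, Sema7a and, named after its values were seen, Efna1 at 0.32 ± 0.15 (edgeR adjusted p = 0.999). Efna1 was at 0.20 with muscle and marrow covariates.

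Sema3f, a class 3 semaphorin that signals through Nrp2, stood at 8.43, 12.1, 7.88 and 14.6 CPM in CKO loaded limbs, against 7.56, 6.2, 8.09 and 9.94 CPM in CKO non-loaded limbs. In WT it averaged 10.8 ± 2.72 CPM in loaded and 8.86 ± 1.42 CPM in non-loaded limbs (SD, n = 7 each). Loaded and non-loaded limbs overlapped in both genotypes. The mean log2 fold change was 0.36 ± 0.14 (edgeR adjusted p = 0.999), and 0.19 without mice 691 and 699. The unadjusted count for this comparison was 8 without mouse 688, and also without mice 686 and 688 together. It was 7 without mouse 694 and 2 without mouse 691 or 693.

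**Figure D4:**
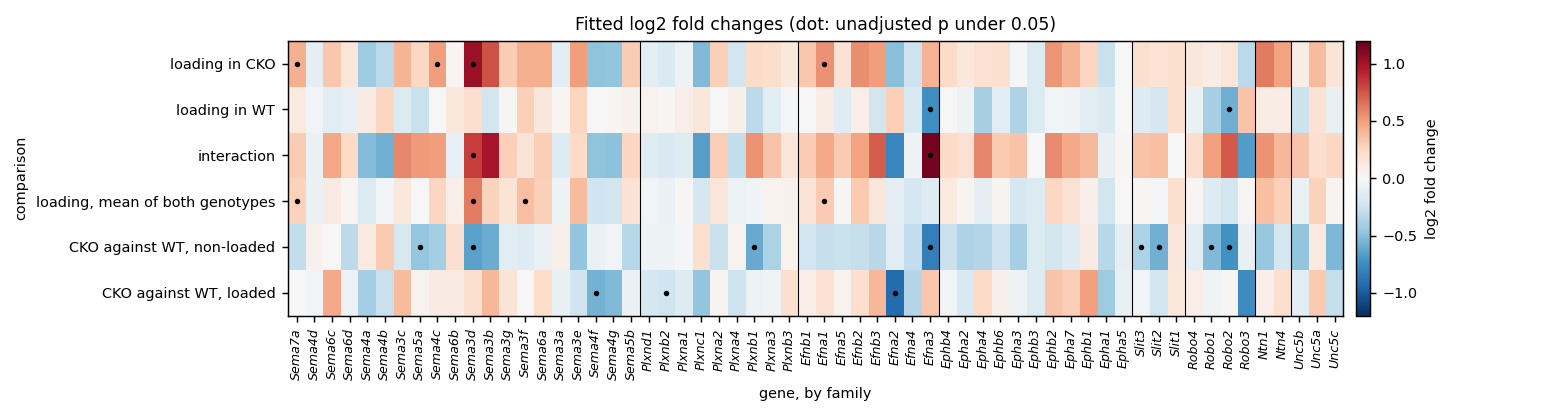
Fitted log2 fold change of the 60 tested members (columns, by family) in the 6 comparisons (rows), from blue (below 0) to red (above 0); dots mark an unadjusted p under 0.05. Most columns are red for loading in CKO and blue for CKO against WT in the non-loaded limb, 2 comparisons that share the CKO non-loaded libraries.

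In the non-loaded limb, 49 of 60 members were lower in CKO than in WT and 11 higher, with a median of -0.24 on the log2 scale, while over all genes 49.3% were higher and the median was -0.00. By edgeR 0 passed, as for 0.0% of all genes, and 0 by DESeq2 or either voom fit. At an unadjusted p under 0.05 there were 8, all lower in CKO (background 3.04%, with 0.857% higher and 2.19% lower). All 8 ephrins and all 4 Robos were below 0, as were 10 of 11 Eph receptors, 15 of 20 semaphorins and 6 of 9 plexins.

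Plxnb1, the receptor of Sema4d, stood at 11.6, 6.05, 11.4 and 11.4 CPM in CKO non-loaded limbs, against 7.83, 15.9 and 21.5 CPM (lowest, median and highest) in WT non-loaded limbs. All CKO values lay below the WT median, and the groups overlapped. Its log2 fold change was -0.60 ± 0.22 (edgeR adjusted p = 0.976). Its ligand Sema4d read 93.2, 102, 95.2 and 78.4 CPM in CKO non-loaded limbs, against 77.5, 84.1 and 110 CPM (lowest, median and highest) in WT non-loaded limbs, a log2 fold change of 0.05 ± 0.10, smaller than its error.

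Slit2, a secreted ligand of Robo1 and Robo2, read 68.1, 51.0, 76.8 and 71.0 CPM in CKO non-loaded limbs, against 59.6, 96.0 and 155 CPM (lowest, median and highest) in WT non-loaded limbs. Again all CKO values lay below the WT median within overlapping ranges. The log2 fold change was -0.58 ± 0.24 (edgeR adjusted p = 0.976). Slit3, which is made by bone cells, averaged 71.5 ± 14.7 CPM (n = 4) in CKO non-loaded and 93.0 ± 21.1 CPM (n = 7) in WT non-loaded bone (SD), at -0.38 ± 0.18. Both receptors were lower as well, Robo2 at -0.72 ± 0.32 and Robo1 at -0.53 ± 0.25. Sema5a gave -0.47 ± 0.20 and Efna3 -0.82 ± 0.36. These last 5, Slit3, Robo2, Robo1, Sema5a and Efna3, were named after their values were seen, and each had an edgeR adjusted p of 0.976.

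These counts leaned on single mice: the unadjusted count of 8 became 1 without mouse 691, 2 without mouse 685 and without mice 686 and 688 together, 3 without mouse 687, 5 without mouse 690 and 19 without mouse 699. The median was -0.138 without mouse 691, when Robo2 was at -0.455 and Slit3 at -0.25. By voom with quality weights Slit2 was at -0.375 and Robo1 at -0.28. With muscle and marrow covariates 48 members were below 0, 2 had an unadjusted p under 0.05, and the median was -0.11. Osteoblast genes were lower in the same comparison, all 11 below 0 with a median of -0.62 on the log2 scale. They summed to 3730 to 12000 CPM in CKO non-loaded and 4850 to 34900 CPM in WT non-loaded bone. Osteocyte genes were lower too, all 8 below 0 with a median of -0.62 and 5 of 8 at an unadjusted p under 0.05, summing to 560 to 648 CPM in CKO non-loaded and 612 to 1570 CPM in WT non-loaded bone. The part of either list in the members' values was not tested.

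In the loaded limb, 29 members were higher and 31 lower in CKO than in WT, with a median of -0.02, where 43.7% of all genes were higher. Without mouse 688 the split was 34 higher and 26 lower (median 0.10). By edgeR 0 passed, as for 0.0% of all genes, and 0 by DESeq2 or either voom fit. At an unadjusted p under 0.05 there were 3, all lower in CKO: Efna2, Sema4f and Plxnb2. The background was 6.81% of genes in either direction and 2.81% lower.

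Sema4f, a transmembrane semaphorin of low level, stood at 1.91, 1.9, 2.05 and 1.5 CPM in CKO loaded limbs, against 2.26, 2.87 and 3.37 CPM (lowest, median and highest) in WT loaded limbs. The groups did not overlap, and the share of all genes that separate in this way was not counted. Its log2 fold change was -0.57 ± 0.24 (edgeR adjusted p = 0.601). Plxnb2, a widely expressed receptor of class 4 semaphorins, averaged 75.7 ± 6.77 CPM (n = 4) in CKO loaded and 89.5 ± 4.96 CPM (n = 7) in WT loaded bone (SD). It gave -0.24 ± 0.11 (edgeR adjusted p = 0.601), and the groups overlapped only through the CKO value of 84.2 CPM. Plxnd1 averaged 98.0 ± 7.51 CPM (n = 4) in CKO loaded and 113 ± 8.53 CPM (n = 7) in WT loaded bone (SD), at -0.21 ± 0.10 (edgeR adjusted p = 0.601). Efna2, for which a role in osteoclasts has been described in mouse, had 8 to 40 counts per library and gave -0.92 ± 0.33 (edgeR adjusted p = 0.601). It was named after its values were seen and read 0.524, 0.425, 0.367 and 0.689 CPM in CKO loaded limbs, against 0.658, 0.956 and 1.21 CPM (lowest, median and highest) in WT loaded limbs. All 20 muscle genes were higher in CKO in this comparison, with a median of 0.62 on the log2 scale, and with muscle and marrow covariates 47 of 60 members were below 0. Under these covariates Sema4f was at -0.375, Plxnb2 at -0.13 and Plxnd1 at -0.135. Plxnd1 was at -0.09 without mice 691 and 699. The unadjusted count of 3 became 1 without mouse 698 and 2 without mouse 692 or 699.

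The remaining members with a known part in bone or its vessels had no unadjusted p under 0.05 in any of the 6 comparisons. Sema3a averaged 10.7 ± 2.04 CPM in CKO loaded and 11.7 ± 4.84 CPM in CKO non-loaded bone (SD, n = 4 each). In WT it averaged 11.4 ± 2.7 CPM in loaded and 11.2 ± 1.66 CPM in non-loaded bone (SD, n = 7 each). Its loading effect was -0.14 ± 0.24 in CKO and 0.02 ± 0.18 in WT on the log2 scale, each smaller than its error and of either sign over the alternatives. Sema4d was the steadiest of this group, at 77.5 to 110 CPM over all libraries, with a loading effect of -0.12 ± 0.11 in CKO and -0.04 ± 0.08 in WT. The CKO value was -0.02 without mouse 691 and -0.20 without mouse 698.

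Efnb2 averaged 16.3 ± 6.49 CPM in CKO loaded and 11.1 ± 4.69 CPM in CKO non-loaded bone (SD, n = 4 each), against 14.2 ± 4.03 CPM in WT loaded and 13.5 ± 3.55 CPM in WT non-loaded bone (SD, n = 7 each). Its receptor Ephb4 averaged 30.9 ± 6.03 CPM in CKO loaded and 26.4 ± 5.99 CPM in CKO non-loaded bone (SD, n = 4 each), against 31.7 ± 5.16 CPM in WT loaded and 31.8 ± 6.07 CPM in WT non-loaded bone (SD, n = 7 each). Loading effects in CKO were 0.56 ± 0.32 for Efnb2 and 0.23 ± 0.20 for Ephb4. Without mouse 691 they were 0.30 and 0.08, without mouse 688 Ephb4 was at 0.36, and with muscle and marrow covariates they were 0.13 and -0.03. Ntn1 varied far more, at 6.83 to 60.6 CPM, and its loading effect in CKO of 0.63 ± 0.49 was about as large as its error. That value was 0.14 without mouse 691 and 0.03 with the covariates. Its receptor Unc5b ran from 23.0 to 87.4 CPM, with 0.09 ± 0.31 in CKO and -0.26 ± 0.24 in WT. By voom with quality weights these were -0.25 and -0.01, and the WT value was -0.14 without mouse 685. Sema6d and its receptor Plxna1 kept narrower ranges, at 55.7 to 109 CPM and 45.9 to 74.8 CPM. Sema3e, the ligand of Plxnd1, lay at 2.33 to 9.98 CPM, with 0.50 ± 0.30 for loading in CKO. It was 0.23 without mouse 691 and 0.81 without mouse 688.

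The extreme values of the members were counted in the libraries with the lowest muscle scores, which did not behave alike. CKO non-loaded 691, which had the lowest muscle score of all, held the lowest value of the 22 libraries for 29 of 60 members, where it did so for 20% of all genes, and the highest for 5, where it did so for 14.7% of all genes. Those 5 were Plxna4, Robo3, Sema3a, Sema4b and Sema6b. WT non-loaded 699, second lowest in muscle, held the lowest value for 10 members (10.5% of all genes) and the highest for 4 (14.1% of all genes), which were Plxnc1, Sema4a, Sema4d and Sema4f. WT loaded 694, next lowest in muscle at 10.251, held the lowest value for 0 members (2.6% of all genes) and the highest for 0 (4.03%). Plxnc1 and Sema4a are expressed on leukocytes. Plxnc1 was at 19.8 CPM in CKO loaded 698, the library with the most muscle RNA, and at 71.1 CPM in CKO non-loaded 691, against 83.8 CPM in WT non-loaded 699. Sema4a was at 20.5 CPM in CKO loaded 698 and 72.0 CPM in CKO non-loaded 691, against 89.0 CPM in WT non-loaded 699. The sum of the neutrophil list went up to 5590 CPM in CKO loaded and 13200 CPM in CKO non-loaded bone, against 10200 CPM in WT loaded and 20400 CPM in WT non-loaded bone, and its part in these values was not tested.

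WT non-loaded 685, also low in muscle score at 10.599, held the highest value for 20 of 60 members. This library held the highest for 11.9% of all genes. It also had the highest sum of osteoblast genes, 34900 CPM, and Robo2 and Unc5b peaked in it at 17.7 and 87.4 CPM. The members picked out in this and the preceding paragraph for holding an extreme were named after their values were seen.

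**Figure D5:**
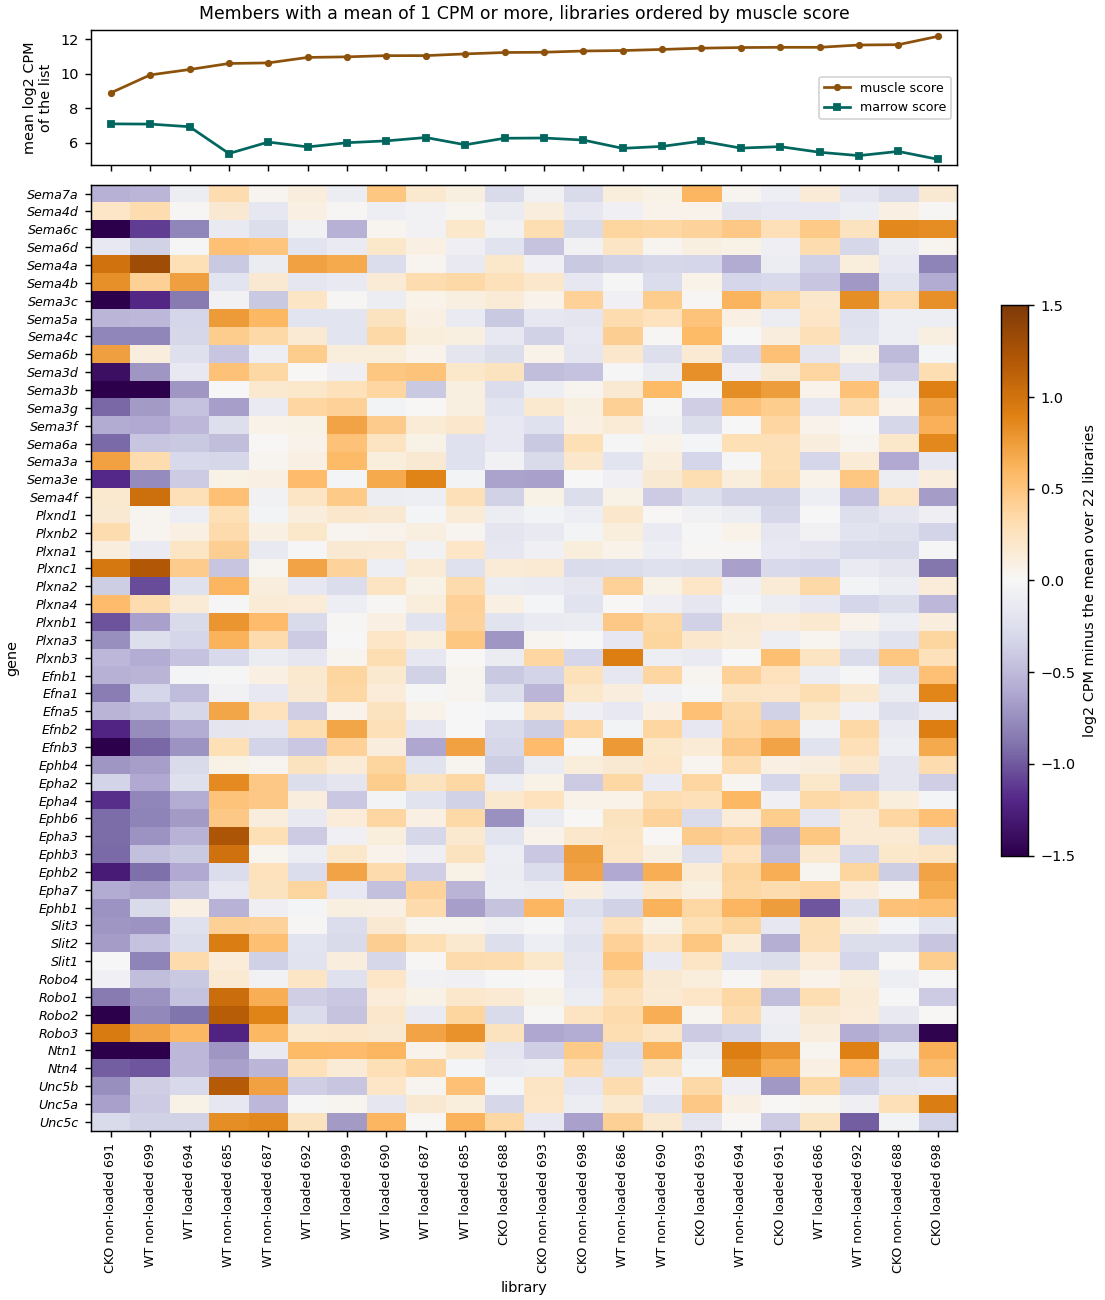
Log2 CPM of the 53 members with a mean of at least 1 CPM, minus their mean over the 22 libraries (lower panel, brown above and purple below the mean), with libraries ordered by the mean log2 CPM of muscle genes (upper panel, beside that of marrow genes). The leftmost library, CKO non-loaded 691, is purple in most rows, with exceptions that include Sema4a, Sema4b, Sema6b, Sema3a, Plxnc1, Plxna4 and Robo3.

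Of 62 other genes of the pathway, co-receptors and cytoplasmic effectors, 60 were tested and 0 passed in any comparison by edgeR. At an unadjusted p under 0.05, loading in CKO gave 1, Rock2, a kinase downstream of RhoA, which was higher (background 3.6% of all genes). Loading in WT gave Pak1, Dpysl4 and Abl2, 1 higher and 2 lower (background 2.34%). The mean of both genotypes gave Abl2 and Rock2, both higher (background 3.17%). In the non-loaded limb 3 were lower in CKO, Farp2, Nrp2 and Dock1 (background 3.04%), and in the loaded limb 1 was, Srgap2 (background 6.81%). The difference of loading effects gave 0 (background 2.6%). The 48 tested cytoplasmic genes had medians of -0.06 to 0.05 on the log2 scale over the 6 comparisons. The 12 tested co-receptors and other ligands had a median of 0.22 for loading in CKO, with 9 above 0, and of -0.09 for loading in WT, with 3 above 0. Their median was 0.42 for the difference of loading effects, 0.06 for the mean of both genotypes, -0.23 for CKO against WT in the non-loaded limb and 0.21 in the loaded limb.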

How the data were processed

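Per the labels' protocols, ulnae were milled in Trizol and stranded total RNA libraries were made from 4 ng of RNA. STAR, RSEM and GRCm38 are named in the submitters' processing notes; no source used here gives their versions or the annotation. The authors deposited whole-number expected counts per gene (RSEM estimates), and rounding changed 0 values. Symbols, lengths and positions came from GENCODE M21 (25428 of 25471 identifiers matched).

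The main test was edgeR's quasi-likelihood test (version 4.0.16, with limma 3.58.1, in R 4.3.3), run with glmQLFit (robust) and glmQLFTest in 1 model of 4 group means over all 22 libraries. It covered the 18793 genes that passed filterByExpr, with TMM scaling. There were 18 residual degrees of freedom, and the biological coefficient of variation was 0.271. P-values are two-sided, were adjusted by Benjamini-Hochberg over those genes and called under 0.05. Standard errors are the log2 fold change over the square root of F. Depth was 21999891 to 42833729 counts per library. CPM are counts scaled to the TMM-adjusted library size, log2 CPM use a prior count of 2, and muscle and marrow scores are the mean log2 CPM of marker lists. No 2 libraries of a group agreed within counting noise (chi-square per gene of 26.3 to 521 over 54 pairs). Scripts were tested on simulated data.

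Replicate numbers are mice, and both limbs of a mouse share a number, which pairs the samples. The main model did not use this pairing, so its standard errors and p-values for loading are unpaired. Deviations from the group mean correlated between the limbs at over 0.1 in 7 of 11 mice (lowest -0.256, highest 0.415). The mouse as a block could not be fitted for CKO against WT. Alternatives were median-ratio scaling, other count filters, DESeq2 1.42.0, voom with quality weights or a random mouse effect, only the groups compared, the mouse block, covariates, and leaving out mice.

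The members and lists were chosen with earlier results of these data known. Members named with fold changes were those called and the 3 with the smallest p per comparison and a mean of at least 1 CPM. Other members at an unadjusted p under 0.05 are also given. Levels, for some with fold changes, are given for the leader of each family per length and for members listed for roles in bone and vessels. Exons of members overlapped other genes on the same strand by at most 1.4%.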

Additional observations from a re-analysis of the deposited data

Results flagged for a closer look

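Of 128 pairs of a named member and a group, 6 held a library far from the others of its group. The test of the gap flags about 1 in 20 groups by chance, and 6 of 128 is near that rate. In CKO non-loaded bone, 3 of the 6 flagged libraries were mouse 691, lowest for Plxnb1 at 6.05 CPM (next 11.4), for Sema3b at 4.3 CPM (next 15.2) and for Sema3d at 13.5 CPM (next 25.3). Mouse 699 was lowest in WT non-loaded bone for Ephb4 at 18.9 CPM (next 31.0) and for Slit3 at 50.1 CPM (next 87.2). Mouse 690 was highest in WT loaded bone for Sema7a at 82.2 CPM (next 66.2). The non-loaded libraries of mice 691 and 699 had the lowest muscle scores of the 22, at 8.90 and 9.94 as mean log2 CPM, and the part of muscle in these values was not tested.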

How the results depend on the processing

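The number of members called by edgeR, 0 in each of the 6 comparisons, became 1 (Sema3d) with DESeq2 and with voom with quality weights for loading in CKO and for the mean of both genotypes, and 1 with the replicate block and covariates for that mean. It stayed at 0 under the other alternatives run, leaving out each mouse included. With the replicate block alone, which uses the pairing of limbs, 0 members were called, Sema3d was at 1.06 (edgeR adjusted p = 0.175) for loading in CKO and at 0.64 (edgeR adjusted p = 0.0909) for the mean. Signs and sizes were followed for 41 of the fold changes given. These leave out Ephb4, Epha5 and the family ranges for loading in WT. Of the 41, 34 kept their sign under each of 20 to 23 alternatives. In all 26 moved by over 1.5 times or turned sign under at least 1, and 16 did so when 1 mouse was left out. For loading in CKO, the values that turned sign were Sema3a at 0.183 (voom with quality weights), 0.124 (covariates), 0.038 (without mice 691 and 699) and 0.028 (without mouse 691), Ephb4 at -0.027 (covariates) and -0.006 (block with covariates), Ntn1 at -0.113 (block with covariates) and Unc5b at -0.252 (voom with quality weights). For loading in WT they were Sema3a at -0.019 (block with covariates), -0.059 (without mice 691 and 699) and -0.026 (without mouse 699), and Sema4d at 0.016 (without mouse 699). For CKO against WT in the non-loaded limb it was Sema4d at -0.008 (without mouse 691). Leaving out 1 mouse put Sema3a at -0.287 to 0.028 for loading in CKO and at -0.026 to 0.062 in WT, and Sema4d at -0.081 to 0.016 for loading in WT and at -0.008 to 0.119 for CKO against WT in the non-loaded limb. Over all genes, calls for loading in CKO lay at 0 to 22 under the alternatives (main count 3), in WT at 0 to 34 (main count 1) and for the mean at 10 to 89 (main count 17). Depth limits Efna2 and Efna3, with 8 to 40 and 6 to 34 counts per library. The cause of these differences was not tested.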
